A study of Mus musculus with 4 samples.

Results

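Hepatokines are proteins that the liver releases into the blood to act on other tissues. Described here are 9 of their genes, namely Fgf21, Gdf15, Inhbe, Inhbc, Angptl4, Angptl8, Fetub, Lect2 and Selenop, which were listed by name as liver-secreted metabolic factors and matched by mouse symbol to the gene IDs of the expression files. All 9 were found among 22298 genes, and all 9 were among the 11633 genes tested. The measurements come from bulk RNA sequencing of primary hepatocytes of wild type male C57BL/6 mice in which a methionine- and choline-deficient (MCD) diet, given for 6 weeks, had produced non-alcoholic steatohepatitis (NASH), a fatty liver with inflammation and fibrosis. The 2 tamoxifen libraries came from mice injected with 100 mg/kg tamoxifen, a selective estrogen receptor modulator, in corn oil on 5 consecutive days, and the 2 vehicle libraries came from mice on the same diet without the drug. No group on a normal diet was sequenced, so each comparison is between diseased livers with and without tamoxifen. The study's methods give pair-feeding of drug and control mice as the rule. The labels do not say that the libraries of a group came from separate mice, so no p-value below measures a known spread between mice. Each measures only the spread between these libraries, in the gene itself and in other genes tested.

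As background, FGF21 and GDF15 are stress-induced hormones. FGF21 signals through FGF receptors together with beta-klotho and acts on fat and brain, and GDF15 acts on the hindbrain receptor GFRAL. In liver, Fgf21 is a classic target of PPARA, the fatty acid sensor that switches on fat oxidation in fasting, and of ATF4, the effector of the integrated stress response. Inhbe and Inhbc encode the liver-enriched activin subunits beta E and beta C. ANGPTL4 and ANGPTL8 belong to the proteins that restrain lipoprotein lipase, the enzyme that releases fatty acids from circulating triglyceride, and Angptl8 is induced by feeding and insulin. Fetuin-B, from Fetub, is a protease inhibitor of the cystatin superfamily. LECT2 is a secreted chemotactic factor, and selenoprotein P, from Selenop, carries selenium from liver to other organs.

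After tamoxifen, Fetub rose, Fgf21 and Angptl8 fell, and the other 6 genes did not pass the test. The test was limma on log2(FPKM + 1), where FPKM are fragments scaled to transcript length and to the mapped fragments of the library, and a gene was called at an adjusted p under 0.05 (Benjamini-Hochberg over all genes tested). Of all genes tested, 46.7% were called lower and 4.31% were called higher, so 2 of 9 lower and 1 of 9 higher are to be read against those shares. The median log2 fold change was -0.27 over the 9 genes and -0.60 over all genes tested. Most transcripts therefore had lower FPKM in tamoxifen libraries, and a gene with no change in FPKM sat above the typical gene. Under other scalings of the libraries the split of all genes changed, from 5432 lower and 501 higher as deposited to 2258 lower and 1929 higher after median-ratio scaling (each library divided by its median ratio to the geometric mean of all libraries), 1595 lower and 1563 higher after quantile normalization, and 8143 lower and 135 higher when the hepatocyte markers were set equal. In that last setting limma estimated an infinite prior df, so each gene was given the spread of genes at its level and not its own. Calls at that setting are counts to be read with that limit. As deposited the prior df was 5.58 against 2 residual df, so a gene's own spread weighed less than that of genes at its level. Where a library is left out below, 1 group has a single library, which is assumed to vary like the other group.

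**Figure D1:**
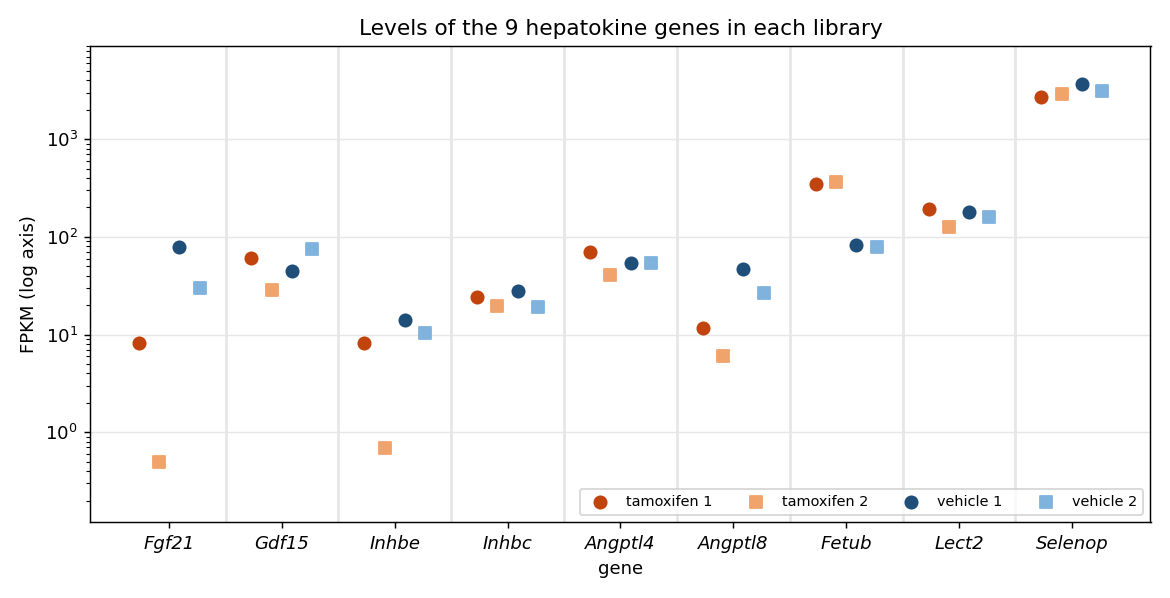
FPKM of the 9 genes on a log axis, 1 point per library (tamoxifen 1 and 2 in orange, vehicle 1 and 2 in blue). Fetub is at 351 and 365 in tamoxifen against 82.0 and 78.7 in vehicle, while Fgf21 and Inhbe reach 0.50 and 0.69 in tamoxifen 2 alone.

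The promoters of 3 of these genes share an element, and their sequences are shown because the 3 are also the genes with the most negative fold changes of the 9. Of the 3, Inhbe did not pass the test. The letters searched, on both strands, were TTGCATCA, the core of a C/EBP-ATF response element (CARE) at which ATF4 is known to bind, chosen after some of the promoter sequences had been seen. The windows are the 250 bases before the start of each gene in the RefSeq promoter table (GRCm38.p6), which held 8 of the 9 genes but not Angptl4. The capitals mark the match, which in Angptl8 lies on the other strand and so reads TGATGCAA. The Fgf21 stretch lies at chr7:45615572-45615679 on the minus strand, the Angptl8 stretch at chr9:21835330-21835437 on the plus strand and the Inhbe stretch at chr10:127352011-127352040 on the minus strand.
Fgf21: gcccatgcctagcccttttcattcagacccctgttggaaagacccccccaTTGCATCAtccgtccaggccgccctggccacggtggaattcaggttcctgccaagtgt
Angptl8: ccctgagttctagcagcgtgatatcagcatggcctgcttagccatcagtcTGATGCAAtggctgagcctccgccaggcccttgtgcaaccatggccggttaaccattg
Inhbe: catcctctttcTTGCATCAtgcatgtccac
The match begins 139 bases before the start in Fgf21, 130 bases before it in Angptl8 and 181 bases before it in Inhbe. For Inhbe the GENCODE M21 annotation places the start farther upstream, so this stretch lies inside the transcript there, and only 30 bases are shown. Across the table, 248 of 27025 genes (0.918%) held the element in a window of this length, against 3 of the 8 hepatokine genes. Because the letters were chosen with some of these sequences known, this comparison is no test of enrichment. A link between the element and the fold changes was not tested. The E-box CACGTG was in the windows of Fgf21 and Gdf15, as in 6.86% of all genes. The DR1 element of PPAR, searched in its perfect form, was in none of the 8 windows and in 0.0407% of all genes, which says only that these letters are not in these windows. A match is a description of the sequence and not a measured site of binding.

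Fetub gave the clearest change of the 9. It lies on chromosome 16 at 22918334 to 22939778 on the plus strand (GRCm38, as for all gene positions below). It was at 350.7 and 365 FPKM in tamoxifen libraries, against 82.0 and 78.7 FPKM in vehicle libraries. The replicates lay within a few percent of each other, and the groups did not overlap. The mean was 358 ± 10.4 FPKM in tamoxifen and 80.3 ± 2.36 FPKM in vehicle (SD, n = 2 libraries each), which is 4.46-fold higher. The log2 fold change was 2.14 (standard error (SE) 0.20, 95% interval 1.67 to 2.62, limma adjusted p = 0.000643), the 67th highest of 11633 genes. Relative to the median of all genes it was 2.75. The call held in each of the 13 alternatives run for it, with values of 1.40 to 2.93.

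Fetub lies in a run of liver genes that encode relatives in the cystatin superfamily, and the genes beside it did not all behave alike. Ahsg, encoding fetuin-A and 18930 bases away, was at 4515 and 4903 FPKM in tamoxifen and at 4969 and 3932 FPKM in vehicle, with a log2 fold change of 0.09 (SE 0.34, limma adjusted p = 0.836) and overlapping groups. Beyond Ahsg, Dnajb11, an endoplasmic reticulum chaperone gene 38747 bases away, was at 26.5 and 26 FPKM in tamoxifen and at 34.9 and 44.2 FPKM in vehicle and did not pass (-0.56, limma adjusted p = 0.055). On the other side, Hrg, the gene of histidine-rich glycoprotein, was at 654 and 1071 FPKM in tamoxifen against 227 and 169 FPKM in vehicle and rose by 2.09 (limma adjusted p = 0.00203). Kng2, a kininogen gene, was at 223 and 312 FPKM in tamoxifen against 98.1 and 90.7 FPKM in vehicle and rose by 1.47 (limma adjusted p = 0.00286). Thus Fetub and its 2 neighbours on one side were called higher, while the most abundant gene of the run, on its other side, was not. These neighbours were named for their position.

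**Figure D2:**
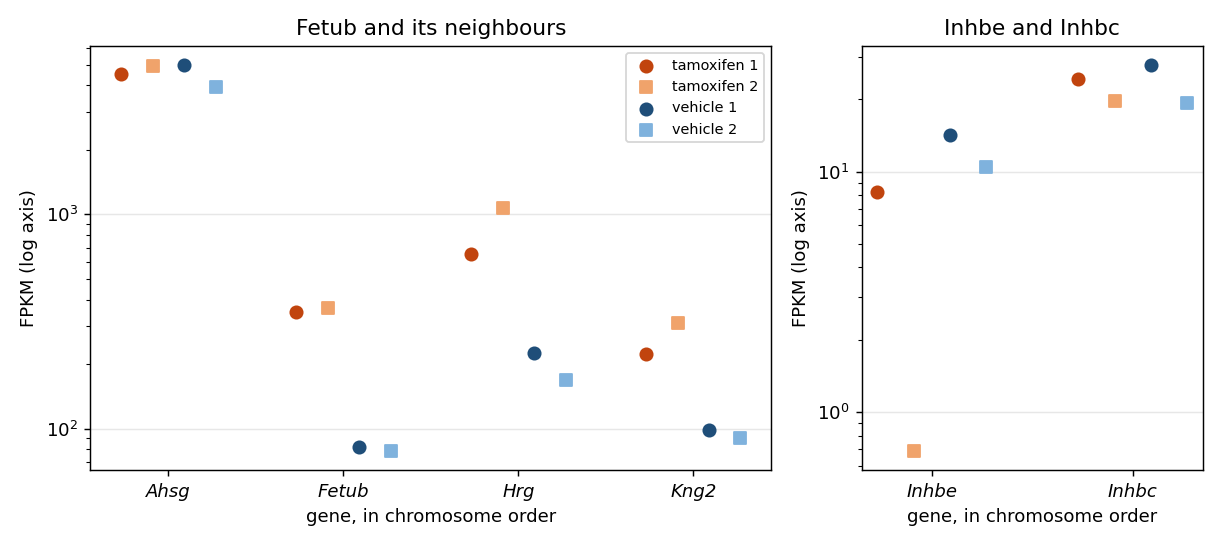
FPKM on a log axis for Fetub with its neighbours (left) and for Inhbe with Inhbc (right), in chromosome order, 1 point per library. Fetub, Hrg and Kng2 are higher in both tamoxifen libraries while Ahsg overlaps, and the low Inhbe value of 0.69 in tamoxifen 2 has no counterpart in Inhbc.

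Fgf21, on chromosome 7 at 45613886 to 45615490 on the minus strand, was at 8.27 and 0.50 FPKM in tamoxifen libraries, against 77.9 and 29.99 FPKM in vehicle libraries. Both tamoxifen values were below both vehicle values, but the replicates of each group were far apart. The mean was 4.38 ± 5.49 FPKM in tamoxifen and 54.0 ± 33.9 FPKM in vehicle (SD, n = 2 libraries each), a 12.3-fold lower level. On the log2 scale it fell by 3.73 (SE 0.78, 95% interval -5.56 to -1.90, limma adjusted p = 0.00746), the 62nd lowest fold change of 11633, and by 3.12 relative to the median of all genes. The value of tamoxifen 2 rests on about 8 fragments, whose exact Poisson 95% interval of 0.217 to 0.993 FPKM covers counting error only and stays below the 8.27 FPKM of tamoxifen 1. With each library left out in turn the log2 fold change ran from -5.04 without tamoxifen 1 to -2.42 without tamoxifen 2, so its size is poorly fixed by these libraries. The call was lost without vehicle 1 (log2 fold change -3.05, limma adjusted p = 0.0738) and when no filter on low values was applied (limma adjusted p = 0.0585).

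Angptl8, on chromosome 9 at 21835510 to 21837347 on the plus strand, was at 11.7 and 6.02 FPKM in tamoxifen libraries, against 46.8 and 26.6 FPKM in vehicle libraries. The groups were clearly separate, and in both of them library 1 was the higher one. The mean was 8.88 ± 4.04 FPKM in tamoxifen and 36.7 ± 14.2 FPKM in vehicle (SD, n = 2 libraries each), 4.13-fold lower after the drug. It fell by 1.94 on the log2 scale (SE 0.36, 95% interval -2.77 to -1.11, limma adjusted p = 0.00453), or by 1.34 relative to the median of all genes. Median-ratio scaling (log2 fold change -1.20, limma adjusted p = 0.0556) and quantile normalization (log2 fold change -1.36, limma adjusted p = 0.0537) moved it just past the threshold, with the same direction. The gene lies within the bounds of Dock6, with which it shares no exon bases in GENCODE M21. Dock6 was at 1.62 and 2.25 FPKM in tamoxifen against 5.30 and 7.31 FPKM in vehicle.

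Inhbe, on chromosome 10 at 127348857 to 127354411 on the minus strand, was at 8.25 and 0.69 FPKM in tamoxifen libraries, against 14.2 and 10.5 FPKM in vehicle libraries. The groups did not overlap, yet the tamoxifen libraries differed from each other more than tamoxifen 1 did from either vehicle library. The log2 fold change of -1.74 did not pass (SE 0.67, 95% interval -3.31 to -0.18, unadjusted p = 0.0335, limma adjusted p = 0.062). Its size rested on tamoxifen 2: the log2 fold change was -0.52 without that library (limma adjusted p = 0.292) and -2.97 without tamoxifen 1 (limma adjusted p = 0.00123).

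Inhbc, the neighbouring activin gene 4473 bases away at 127356322 to 127370431 of chromosome 10, was at 24.4 and 19.8 FPKM in tamoxifen libraries, against 27.7 and 19.2 FPKM in vehicle libraries. Its groups overlapped, with a log2 fold change of -0.07 (SE 0.24, 95% interval -0.64 to 0.50, limma adjusted p = 0.82). The difference between the 2 activin genes in their response was not tested. Of the exon bases of Inhbc, 14.4% are shared with the antisense gene Gm47200, and no strand setting is given for the library kit, so reads there cannot be assigned to either gene.

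Gdf15, on chromosome 8 at 70629393 to 70632456 on the minus strand, was at 60.2 and 28.8 FPKM in tamoxifen libraries, against 44.9 and 75.9 FPKM in vehicle libraries. The groups overlapped, and the spread within each was wider than the distance between their means. The log2 fold change was -0.47 (SE 0.38, 95% interval -1.36 to 0.41, limma adjusted p = 0.317). Its sign turned after median-ratio scaling (0.31) and without tamoxifen 2 (0.04), so no direction is given.

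Angptl4, on chromosome 17 at 33773750 to 33781830 on the minus strand, was at 69.6 and 40.9 FPKM in tamoxifen libraries, against 54.6 and 54.3 FPKM in vehicle libraries. The vehicle values were nearly equal and lay between the tamoxifen values. The log2 fold change was -0.03 (SE 0.27, 95% interval -0.66 to 0.60, limma adjusted p = 0.935). Angptl4, like Fgf21 a known PPARA target, thus gave no called change beside the fall of Angptl8, and the difference between the 2 lipase inhibitors was not tested.

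Lect2, on chromosome 13 at 56542464 to 56548502 on the minus strand, was at 195 and 128 FPKM in tamoxifen libraries, against 178 and 160.3 FPKM in vehicle libraries. Its groups overlapped, with a log2 fold change of -0.10 (SE 0.26, 95% interval -0.70 to 0.50, limma adjusted p = 0.76). Selenop, on chromosome 15 at 3268547 to 3280508 on the plus strand, was at 2725 and 2880 FPKM in tamoxifen libraries, against 3638 and 3142 FPKM in vehicle libraries. Both tamoxifen values were lower, but the difference was small beside its error (log2 fold change -0.27, SE 0.31, 95% interval -1.0 to 0.46, limma adjusted p = 0.483). Selenop passed as lower after quantile normalization (log2 fold change -0.95, limma adjusted p = 0.015) and turned positive after median-ratio scaling (0.53). In GENCODE M21, 15.4% of its exon bases are shared with the antisense gene Ccdc152, which was at 3.02 and 2.94 FPKM in tamoxifen and 5.20 and 3.18 FPKM in vehicle, far below Selenop.

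Counted by overlap alone, 4 of the 9 genes (Fgf21, Angptl8, Inhbe and Selenop) had both tamoxifen libraries below both vehicle libraries, where 71.9% of all genes tested did, and Fetub alone had both above, where 9.48% did. The 9 genes are a mixed group by this count.

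**Figure D3:**
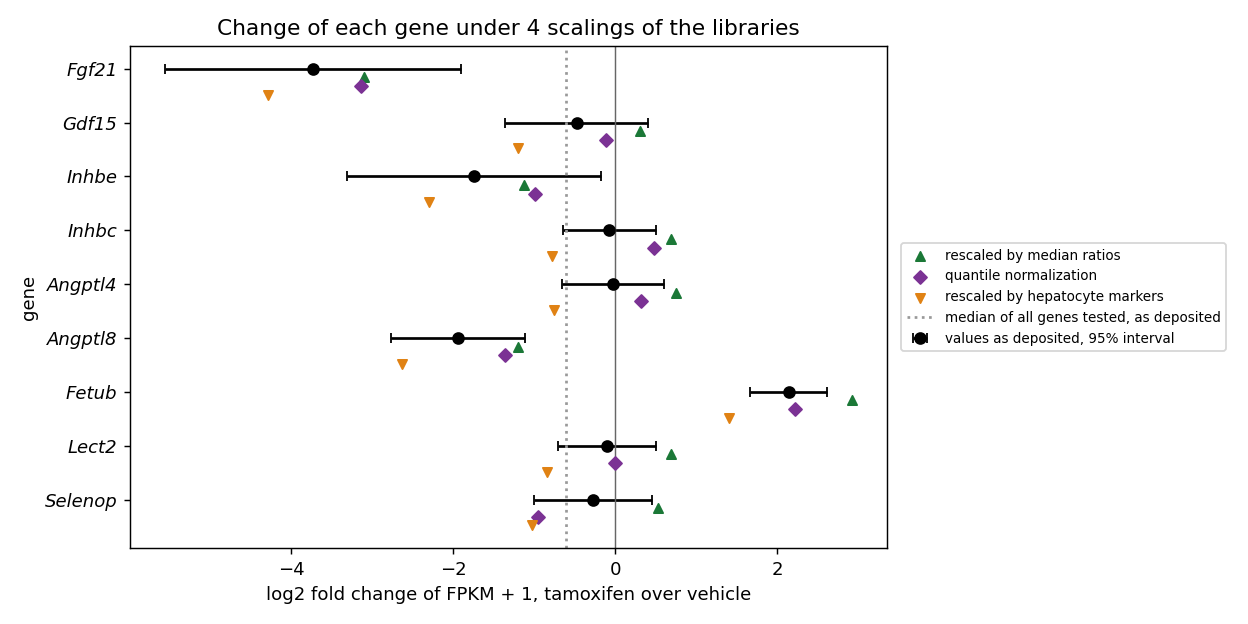
Log2 fold change of FPKM + 1, tamoxifen over vehicle, for the 9 genes. Black points with bars are the values as deposited with 95% intervals, coloured symbols are the values under 3 other scalings, and the dotted line is the median of all genes at -0.60. Fetub, Fgf21, Angptl8 and Inhbe keep their side of 0 under every scaling shown, whereas Gdf15, Inhbc, Angptl4 and Selenop change theirs and Lect2 crosses to 0.69 after median-ratio scaling.

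The order of the 9 genes by FPKM, which is a level per transcript length, also differed between the groups. In tamoxifen libraries it ran Selenop, Fetub, Lect2, Angptl4, Gdf15, Inhbc, Angptl8, Inhbe and Fgf21, in which the ranges of Angptl4 and Gdf15, of Angptl8 and Inhbe, and of Inhbe and Fgf21 overlapped. In vehicle libraries it ran Selenop, Lect2, Fetub, Gdf15, Angptl4, Fgf21, Angptl8, Inhbc and Inhbe, with overlapping ranges between each pair of neighbours from Gdf15 to Inhbc. Fetub was thus above Lect2 in both tamoxifen libraries and below it in both vehicle libraries, and Fgf21, which in vehicle libraries stood in the middle of the order, shared the lowest place with Inhbe in tamoxifen libraries.

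The 2 tamoxifen libraries were not alike for these genes. On log2(FPKM + 1), tamoxifen 1 exceeded tamoxifen 2 by 2.63 for Fgf21, by 2.45 for Inhbe and by 1.04 for Gdf15. A difference of at least 1 in this direction was found in 1.25% of all genes tested and in the opposite direction in 0.851%, where 0 of the 9 genes were. Only 12 genes of 11633 (0.103%) lay at least as far apart as Fgf21 in either direction, and 19 genes (0.163%) as far as Inhbe. The gap was 0.86 for Angptl8, 0.75 for Angptl4, 0.61 for Lect2 and 0.29 for Inhbc, and close to 0 for Fetub and Selenop (-0.06 and -0.08). Between the vehicle libraries, Fgf21 was the only member with a difference of at least 1, with vehicle 1 higher by 1.35. That direction held for 0.215% of all genes, and vehicle 2 was higher by at least 1 for 3.82%. With 1 pair per group, these differences are descriptions with no test.

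Genes of PPARA and fatty acid oxidation showed the same direction between the tamoxifen libraries. All 23 listed genes were higher in tamoxifen 1, 12 of them by at least 1, with a median difference of 1.13 against 0.05 for all genes tested. The list also leaned to library 1 in vehicle, where the median of vehicle 1 minus vehicle 2 was 0.42 against -0.20 for all genes. Plin2, which coats lipid droplets, was at 232 and 27.2 FPKM in tamoxifen against 407 and 421 FPKM in vehicle. Cidec, another lipid droplet protein gene, was at 14.6 and 1.03 FPKM in tamoxifen against 42.1 and 31.2 FPKM in vehicle. Both resembled Fgf21 and Inhbe in having tamoxifen 1 between tamoxifen 2 and the vehicle libraries. Fabp1, the liver fatty acid binding protein, was at 1292 and 350.0 FPKM in tamoxifen against 594 and 527 FPKM in vehicle, so its groups overlapped. Against vehicle, only Plin2 (log2 fold change -2.36, limma adjusted p = 0.0427) and Cidec (-2.73, adjusted p = 0.0239) of the 23 fell, only the omega-hydroxylase gene Cyp4a10 rose (1.48, adjusted p = 0.00303), and 20 did not pass. After median-ratio scaling Plin2 was at -1.57 and Cidec at -2.05, and after quantile normalization at -2.36 and -2.14, and neither passed (limma adjusted p = 0.0788 to 0.193). With hepatocyte markers set equal 12 of the 23 were called lower, and with single libraries left out the number called lower ran from 0 without vehicle 1 or without vehicle 2 to 6 without tamoxifen 1. Whether the uneven Fgf21 and Inhbe values and those of the fatty acid oxidation genes have a common source was not tested.

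**Figure D4:**
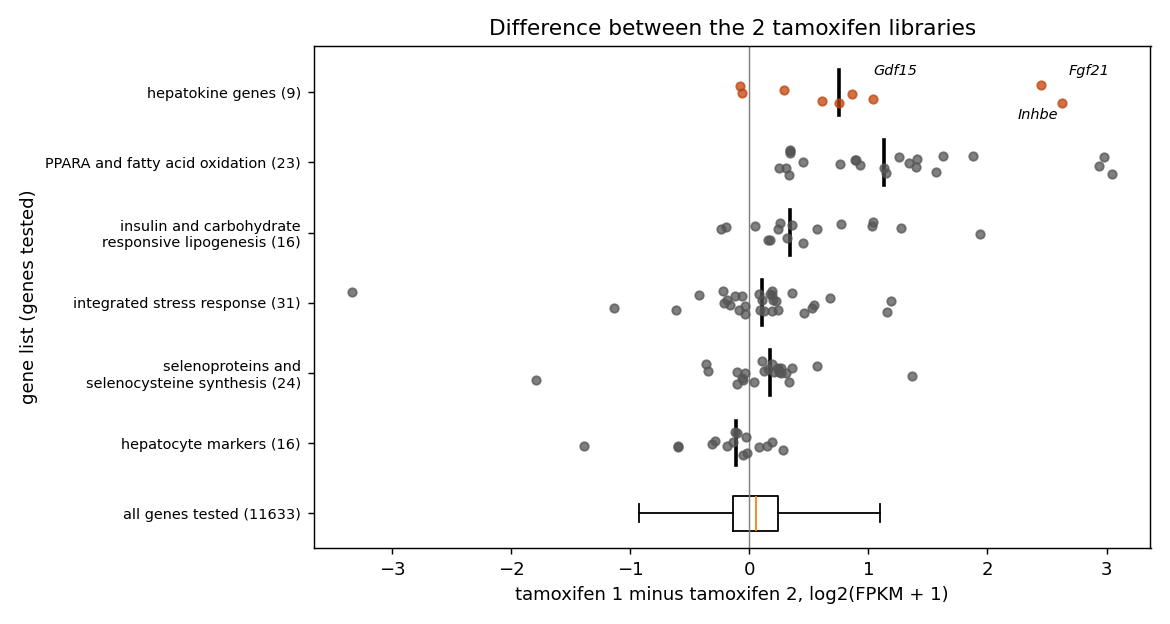
Difference between tamoxifen 1 and tamoxifen 2 on log2(FPKM + 1), 1 point per gene for the 9 hepatokine genes and 5 lists, with black bars at the medians and a box for all genes tested (box at the quartiles, whiskers at percentiles 1 and 99). Fgf21 at 2.63 and Inhbe at 2.45 lie far to the right, and the 23 genes of PPARA and fatty acid oxidation all lie above 0.

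The gene with the most similar pattern was found for each of the 9 by the Euclidean distance between centred log2(FPKM + 1) values over the 4 libraries, among 7520 tested genes whose mean was 5 FPKM or more. For Fgf21 it was G0s2, an inhibitor of the triglyceride lipase ATGL, at 10.1 and 0.62 FPKM in tamoxifen against 34.7 and 21.0 FPKM in vehicle (distance 1.11). For Inhbe it was Acot2, a mitochondrial acyl-CoA thioesterase, at 8.57 and 1.83 FPKM in tamoxifen against 18.8 and 15.1 FPKM in vehicle (distance 0.498). These are the loosest matches of the 9. For Angptl8 the nearest was Cyp2a22 (distance 0.166) and for Fetub it was Nlrp12 (distance 0.118), at 13.8 and 14.2 FPKM in tamoxifen against 2.80 and 2.57 FPKM in vehicle. The others were Rab43 for Angptl4, Suox for Inhbc, Bscl2 for Lect2, Naa80 for Selenop and Lsm5 for Gdf15, at distances of 0.025 to 0.228. With 4 libraries many genes can share a pattern.

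Genes of the integrated stress response, through which Fgf21, Gdf15 and Inhbe are known to be induced, were 14 lower, 1 higher and 16 not called of 31 tested (median log2 fold change -0.47), close to the 46.7% called lower and the median of -0.60 over all genes. Nupr1, a stress-induced chromatin protein, was at 1.74 and 1.41 FPKM in tamoxifen against 44.9 and 54.8 FPKM in vehicle and fell by 4.30 (limma adjusted p = 0.000209). Ddit3, which encodes CHOP, fell by 1.70 and Slc7a11, the cystine transporter, fell by 2.44. The 1 gene called higher was Chac1, at 8.73 and 6.58 FPKM in tamoxifen against 4.03 and 2.26 FPKM in vehicle. It rose by 1.08 (limma adjusted p = 0.0165). Atf4 itself was at 79.7 and 70.7 FPKM in tamoxifen and 95.3 and 107 FPKM in vehicle and did not pass (adjusted p = 0.114). The highest members, Cth and Atf5, did not pass either. Unlike the fatty acid oxidation genes, this list had a median difference of only 0.11 between the tamoxifen libraries. Its balance depended on the scaling, with 6 lower and 7 higher after median-ratio scaling and 5 lower and 4 higher after quantile normalization, and 22 lower and 0 higher with hepatocyte markers set equal. It had 9 lower genes without tamoxifen 1 and 8 without tamoxifen 2.

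Genes of insulin and carbohydrate responsive lipogenesis, a program in which Angptl8 is induced, were 8 lower, 1 higher and 7 not called of 16 tested (median log2 fold change -0.64), again close to the 46.7% called lower and the median of -0.60 over all genes. Scd1, a fatty acid desaturase, fell by 3.05, Elovl6, an elongase, fell by 1.45 and Srebf1, the gene of the transcription factor SREBP1, fell by 1.21. Insig1, which retains SREBP in the endoplasmic reticulum, rose by 0.81, and Dgat2, the last enzyme of triglyceride synthesis, did not pass (0.15, adjusted p = 0.616). Of the 8, 1 was still called lower after median-ratio scaling and 1 after quantile normalization, and with each library left out in turn the count was 4 without vehicle 1, 5 without vehicle 2, 5 without tamoxifen 1 and 1 without tamoxifen 2.

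Around the lipase inhibitors, 4 of 14 genes of the lipoprotein lipase system were lower, 3 were higher and 7 did not pass (median 0.02), where 46.7% of all genes were called lower and 4.31% higher. The list had 2 lower and 4 higher (median 0.82) after median-ratio scaling, 2 lower and 3 higher (median -0.16) after quantile normalization, and 8 lower and 0 higher (median -0.72) with hepatocyte markers set equal. Lpl, lipoprotein lipase itself, was at 37.2 and 29.3 FPKM in tamoxifen against 171 and 278 FPKM in vehicle and fell by 2.69, and Gpihbp1, its anchor on endothelial cells, fell by 1.59. Pcsk6, a proprotein convertase, rose by 1.43. Apoc1 and Apoc3, the most abundant of the list, had log2 fold changes of 0.02 and 0.08 and did not pass. Among the other angiopoietin-like genes, Angptl2 fell by 2.37 and Angptl6 fell by 2.41. In the lipase list, 2 genes were lower without vehicle 2 or without tamoxifen 2, and 1 was higher without either tamoxifen library.

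Of all genes tested, 46.7% were called lower and 4.31% higher (median -0.60). In the activin family, 6 of 9 genes tested were lower, 1 was higher and 2 did not pass (median -0.99). The gene that rose was Fst, encoding the activin antagonist follistatin, at 6.40 and 7.87 FPKM in tamoxifen against 0.89 and 1.25 FPKM in vehicle (log2 fold change 1.97, limma adjusted p = 0.00115). The transcripts of the signal transducers Smad2, Smad3 and Smad4 fell by 1.04, 1.44 and 0.73, and Fstl1, a follistatin-like gene, fell by 2.47. After median-ratio scaling Smad4 was at 0.00 and Smad2 at -0.31 and neither passed, and after quantile normalization none of these Smad genes did. After median-ratio scaling 2 and after quantile normalization 1 of the 9 were lower, and without tamoxifen 2 it was 3.

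Of 17 receptor genes for these hormones, 11 passed the filter on low values, of which 4 were lower and 7 were not called (median -0.22). Of all genes tested, 46.7% were called lower (median -0.60). Among the receptors, 3 were lower and 2 higher after median-ratio scaling (median 0.45). Quantile normalization gave 3 lower and 1 higher (median 0.56). Klb, encoding the beta-klotho that FGF21 needs, was at 9.41 and 10.8 FPKM in tamoxifen and 8.75 and 6.38 FPKM in vehicle and did not pass (0.39, adjusted p = 0.195). Gfral, whose product is known from the hindbrain, was listed at 0 in all 4 libraries. Fgfr2 fell by 2.06, Tie1, an endothelial receptor reported to bind LECT2, fell by 1.84 and Cd209a fell by 1.78. The insulin receptor gene Insr was the highest beside Fgfr2 and had a log2 fold change of 0.09. Of 24 genes of selenoproteins and selenocysteine synthesis, the class of Selenop, 7 were lower, 1 was higher and 16 did not pass, with a median of -0.27 (3 lower without tamoxifen 1), against 46.7% lower and a median of -0.60 over all genes. The balance of that list turned with the scaling, with 3 lower and 7 higher after median-ratio scaling, 2 lower and 2 higher after quantile normalization, and 14 lower and 0 higher with hepatocyte markers set equal. Selenon fell by 2.27, Gpx3 by 1.48 and Selenom by 1.45, and the abundant Gpx1 and Gpx4 did not pass (0.13 and -0.29). Gpx3 was uneven in tamoxifen, at 3.64 and 15.1 FPKM against 20.4 and 25.9 FPKM in vehicle. It did not pass after median-ratio scaling (-0.74) or quantile normalization (-0.84), and Selenom did not pass after quantile normalization (-0.50).

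Of 15 other hepatokine genes, 5 were higher, 3 were lower and 7 did not pass (median 0.58). Over all genes tested, 4.31% were called higher and 46.7% lower (median -0.60). After median-ratio scaling 8 of the 15 were higher and 2 lower (median 1.1). Quantile normalization gave 5 higher and 2 lower (median -0.03). Fgl1, encoding the hepatocyte-derived fibrinogen-like protein 1, was at 1034 and 1512 FPKM in tamoxifen against 98.4 and 118 FPKM in vehicle and rose by 3.52 (limma adjusted p = 0.000476), more than Fetub. Ecm1, a matrix protein gene, fell by 3.45. Ahsg and Rbp4, the most abundant of the list, did not pass. Without vehicle 2, or without tamoxifen 2, 2 of the 15 were called higher, and with the hepatocyte markers set equal 1 was.

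The makeup of the libraries moved with the treatment. Estimated depth was 16700000 to 17800000 fragments in tamoxifen and 19700000 to 20700000 in vehicle, and the 100 highest genes took 62.6% to 65.0% of summed FPKM in tamoxifen and 46.1% to 53.8% in vehicle. All 16 hepatocyte markers were above 1 FPKM in every library. Their sum was 74633 to 77204 FPKM in tamoxifen and 42344 to 55288 FPKM in vehicle. As deposited 6 of 16 were called higher (median log2 fold change 0.74), where 4.31% of all genes tested were. After median-ratio scaling 11 were higher (median 1.54). Quantile normalization left 3 higher and 1 lower (median 0.29). The number called higher also changed with the library left out. Alb, the albumin gene, was at 50399 and 45402 FPKM in tamoxifen and 35301 and 26382 FPKM in vehicle. It did not pass (log2 fold change 0.65, limma adjusted p = 0.329). All 12 Kupffer cell and macrophage markers fell (summed 145 to 247 FPKM in tamoxifen, 1708 to 3449 in vehicle), as did all 7 lipid-associated macrophage markers (160 to 164, against 1618 to 3178), all 10 liver endothelial markers (109 to 128, against 354 to 566) and all 10 stellate cell and fibroblast markers (31.8 to 48.6, against 382 to 661). Among the stellate cell markers, 7 of 10 were below 1 FPKM in each tamoxifen library and none in vehicle. Over all genes tested, 46.7% were called lower. The macrophage, lipid-associated macrophage, endothelial and stellate lists had 12, 6, 9 and 10 lower after median-ratio scaling. After quantile normalization they had 12, 6, 10 and 9. Few cholangiocyte, neutrophil and lymphocyte markers passed the filter, of which 2 of 3, 2 of 4 and 2 of 2 fell. Lower after median-ratio scaling were 1, 1 and 2 of them, and after quantile normalization 0, 1 and 0. All 6 adipocyte markers were below 1 FPKM in every library. In these bulk samples, fewer cells of a type and less RNA per cell cannot be told apart. The part of this shift in the falls of Fgf21, Angptl8 and the listed genes was not tested. With the hepatocyte markers set equal between libraries, Fetub remained higher (1.40), Fgf21 (-4.28) and Angptl8 (-2.63) remained lower, and the other 6 genes had values from -2.30 for Inhbe to -0.76 for Angptl4. At that setting 6 of the 9 genes were called lower, against 8143 of 11633 genes tested, a similar share.

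One library stood apart in another way. Pancreatic acinar markers summed to 8.52 and 43.7 FPKM in tamoxifen, and to 8.53 and 1130 FPKM in vehicle, with the high value in vehicle 2, and 0 of 11 tested were called by limma (1 at an unadjusted p under 0.05, and 11 lower without vehicle 1). Without vehicle 2 the log2 fold change was 2.11 for Fetub, -4.40 for Fgf21 and -2.34 for Angptl8. The limma calls there held, but with vehicle 1 as the only vehicle library they take their spread from the tamoxifen pair and from other genes.

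**Figure D5:**
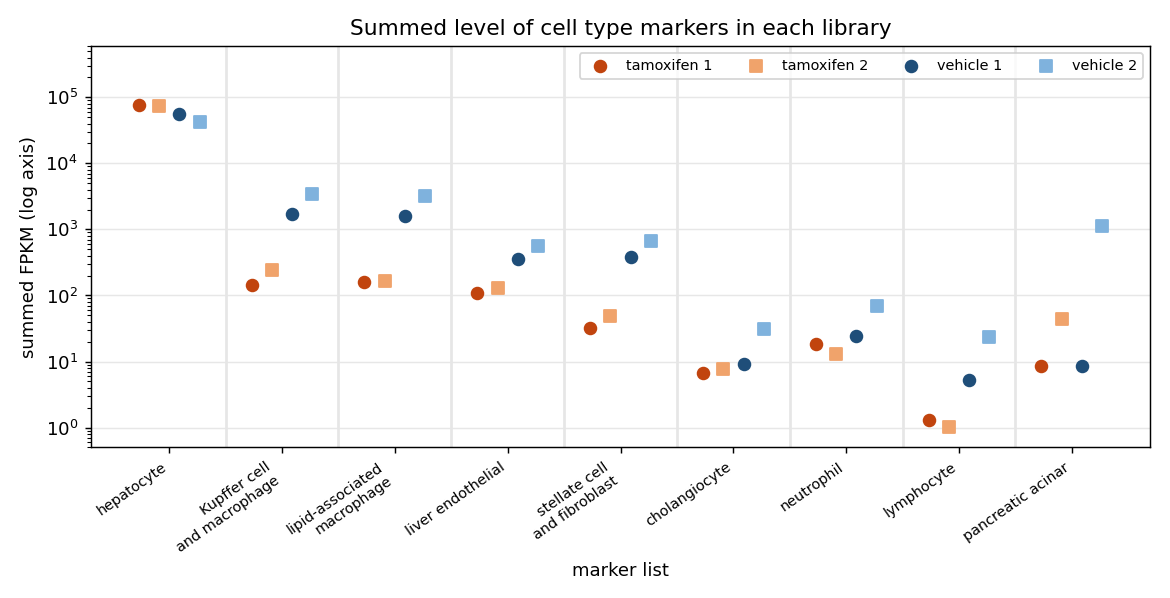
Summed FPKM of cell type marker lists on a log axis, 1 point per library. Macrophage, endothelial and stellate sums are lower in both tamoxifen libraries, hepatocyte sums are higher in both, and the acinar sum is highest in vehicle 2 at 1130.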

How the data were processed

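The authors isolated primary hepatocytes, enriched mRNA with oligo(dT), prepared libraries with a NEBNext Ultra kit and deposited 1 table of FPKM per library. The submitters' processing notes list HISAT2, Bowtie2, RSEM, StringTie 1.3.1 and fastp 0.18.0 without their roles; the annotation and genome build: not given in the sources used here. Depth was therefore estimated from the steps that FPKM values near 0 take once multiplied by GENCODE M21 transcript length (88.0% to 90.7% of those values lay within 0.2 of a whole fragment), so fragment numbers are approximate. Of 22298 gene IDs, 22255 matched a symbol. Genes with at least 1 FPKM in at least 2 libraries were tested on log2(FPKM + 1), which understates the change of low genes, with limma 3.58.1 in R 4.3.3 (lmFit and eBayes with trend) on 2 tamoxifen and 2 vehicle libraries, with Benjamini-Hochberg adjustment over all genes tested. The fit was also run on simulated data in which most genes did not change, which does not check it under the broad shift seen here. Alternatives changed the scaling, pseudocount, filter, variance model, weights, replicate term, threshold or libraries. Gene lists were written from general knowledge, and the 9 genes, lists and tests were chosen with earlier results of these data known. Named from the pathway lists are the 3 largest called changes and the 2 genes with the highest mean, and of the cell type lists, given as sums and counts, only Alb, with further members for their known role, chosen after their values were seen. Some genes that this rule would name are not reported here. Sequences come from RefSeq. Python 3.11.15 and matplotlib 3.10.9 drew the figures.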

Additional observations from a re-analysis of the deposited data

How the results depend on the processing

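The single call of a higher gene, Fetub, was made under every alternative run. The number of the 9 genes called lower was 2 as reported, 1 after median-ratio scaling, 6 with the hepatocyte markers set equal (where the fit used no spread of the single gene), 1 with no filter on low values, and 1 to 3 when each library was left out in turn (lowest without vehicle 1). Over all genes, 5432 were called lower as deposited, 2258 after median-ratio scaling, 1595 after quantile normalization, 8143 of 11633 with the hepatocyte markers set equal, 3182 where the mean had to reach 5 FPKM, and 2555 to 5531 with each library left out. The number called higher was 501, against 1929 after median-ratio scaling, 1563 after quantile normalization, 135 with hepatocyte markers set equal, and 263 to 500 with each library left out. The median of all genes was -0.60 as deposited, 0.06 after median-ratio scaling, 0.09 after quantile normalization and -1.23 with the hepatocyte markers set equal. The sign turned for Gdf15 (0.31), Inhbc (0.69), Angptl4 (0.75), Lect2 (0.69) and Selenop (0.53) after median-ratio scaling, and for Inhbc (0.48) and Angptl4 (0.32) after quantile normalization. It also turned without tamoxifen 2 for these genes other than Selenop and without vehicle 1 for Inhbc, so that with each library left out in turn the values ran from -0.99 to 0.04 for Gdf15, -0.32 to 0.18 for Inhbc, -0.41 to 0.35 for Angptl4 and -0.40 to 0.20 for Lect2, with Inhbc at 0.07 without tamoxifen 2. None of these genes was called as reported, and the cause was not tested. Libraries of the same number deviated together only weakly (correlation 0.283 over genes, 2 pairs), and the labels do not pair them. With the replicate number as a block, 3 of the 9 genes were called lower, Inhbe among them (limma adjusted p = 0.00017), and 5863 genes were lower and 573 higher. That fit had 1 residual df against a prior df of 20.1. Its p-values therefore rest mostly on the spread of other genes and little on that of Inhbe itself. With 2 libraries a group, a gene such as Gdf15 that misses the threshold is not shown to be the same in both.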
